A study of Mus musculus with 4 samples.

Results

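The cathepsins Ctsa, Ctsb, Ctsc, Ctsd, Ctsh, Ctsk, Ctsl, Ctss and Ctsz and the secreted inhibitor cystatin C, Cst3, were followed in injured mouse aorta. They were taken by gene name from the probes that are not controls, which gave 10 genes and 19 probes of 56605 probes and 37074 gene names on the array. Of the 19 probes, 17 were well above background on 2 or more arrays and 2 were so on no array, and all 10 genes kept at least 1 probe. The samples were abdominal aortic tissue of male mice of 12 weeks, taken 4 weeks after CaPO4, the calcium phosphate that injures the vessel. Arrays K4 and K5 are labelled SR-A1-/- and arrays W2 and W3 are labelled wild type, with 1 RNA sample on each one-colour array. SR-A1 is the scavenger receptor encoded by Msr1. Both groups received CaPO4, and tissue without it was not analysed here. The labels name neither the allele nor the strain, and they do not say whether each array was 1 animal, so the tests measure only the spread between these samples.

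Cathepsins are proteases of the lysosome, made as inactive precursors and switched on by cleavage in acid compartments. Those of the papain family (B, C, H, K, L, S and Z) use a cysteine in their active site, cathepsin D uses aspartate residues, and cathepsin A is a serine carboxypeptidase. When secreted by macrophages and smooth muscle cells, cathepsins K, L and S can cut elastin and collagen of the arterial wall, and cystatin C is the main extracellular inhibitor of the cysteine cathepsins.

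All 4 arrays were on 1 slide with 1 scan time. Each value below is a log2 signal relative to its own array's 75th percentile, which stood at 245 and 133 signal units on K4 and K5, against 132 and 220 on W2 and W3. Msr1 went against the labels. Its probe at base 3231 read -1.26 on K4 and -2.09 on K5, well above background on both, against -5.30 on W2, where it was not well above background, and -2.10 on W3. Whether these probes lie in the part removed is not known, so higher and lower are used here for arrays as labelled. The smooth muscle markers of the aortic wall, Acta2, Myh11, Tagln, Cnn1, Smtn, Myocd, Des and Lmod1, were above background on all 4 arrays.

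Ctsc and Ctsh were higher on both arrays labelled SR-A1-/- than on either array labelled wild type, by a log2 difference of 0.94 for Ctsc and 0.78 for Ctsh. Ctsk and Ctss had differences of 0.76 and 0.68, but their groups overlapped. Ctsb, Ctsd, Ctsl and Ctsz had differences between -0.016 and 0.21, and those of Ctsa and Cst3 were -0.42 and -0.29. No member passed an adjusted p of 0.05 in limma, fitted over 22497 genes of which 0% were called. At an unadjusted p under 0.05 there were 2 members, both higher, where the background was 3.85% of all genes higher and 2.44% lower. The groups did not overlap for 2 members that were higher and 1 that was lower, against 16.2% and 13.6% of all genes. No member was both apart and higher by at least 1 on the log2 scale, as 3.96% of all genes were. The median difference of the 10 members was 0.17, with 7 above 0 and 3 below, and that of all genes was -0.0048, with 49.4% above 0.

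**Figure D1:**
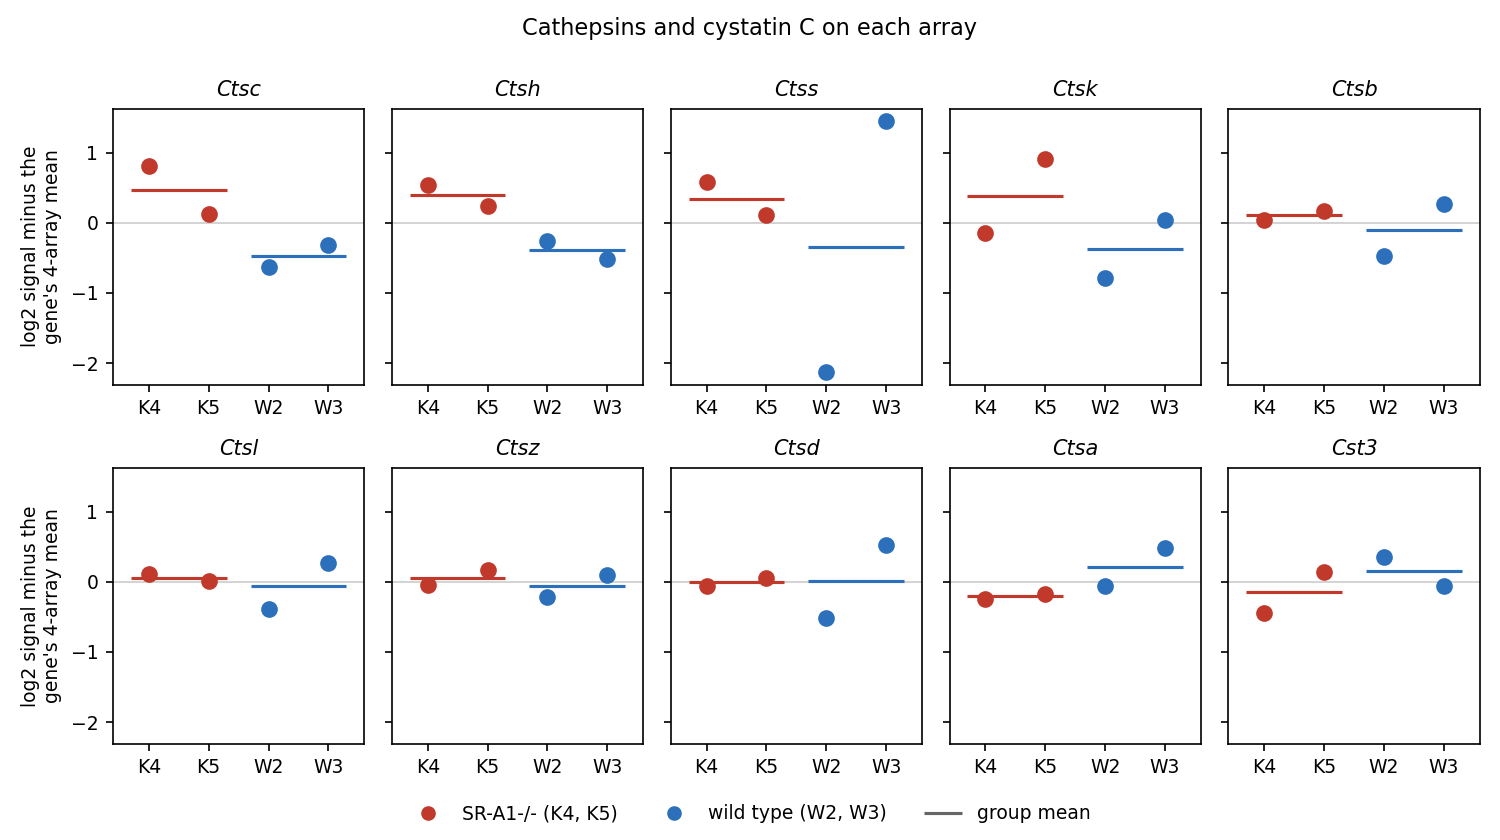
Each panel shows 1 gene, with the log2 signal of its brightest probe minus the gene's mean over the 4 arrays on the vertical axis and the arrays on the horizontal axis (red, labelled SR-A1-/-; blue, labelled wild type; lines, group means). Ctsc and Ctsh have both red points above both blue points, and Ctss is spread most widely, with W2 lowest and W3 highest.

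Ctsh encodes cathepsin H, an aminopeptidase, and it was the member measured by the most probes. Its brightest probe, at base 1517 of NM_007801, read 6.33 on K4 and 6.03 on K5, against 5.52 on W2 and 5.28 on W3. Both arrays labelled SR-A1-/- were above both labelled wild type, and the difference was 0.78 ± 0.30 (limma SE, 2 arrays a group, 95% interval 0.013 to 1.55, adjusted p = 0.784). Beside this probe 3 others were above background. Their sequences are shown because they sample separate stretches of the gene. The first 30 of the 60 bases of each probe are given 5′ to 3′ in lower case, with no base singled out.
Ctsh base 483: ccagaggaaccacacatttaaaatggcgtt
Ctsh base 680: aaacagaagttaaagcgcgccagccatttt
Ctsh base 1045: gaagattttttgatgtataaaagtggcgtc
Ctsh base 1517: acctagaatcgtctctctttccagctctct
On mm9 they lie on the plus strand at chr9:89956440-89957591, chr9:89950039-89950098, chr9:89966726-89969727 and chr9:89970828-89970887. The probes at bases 483 and 1045 span 1152 and 3002 bases of the genome, longer than the probe, so each covers an exon junction of NM_007801. The probe at base 680 belongs to another transcript, ENSMUST00000186126.

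Each of these probes separated the groups. The exon junction probe at base 483 read 1.55 and 1.75 on K4 and K5, against 1.48 and 0.62 on W2 and W3, and the one at base 1045 read 2.60 and 2.98, against 2.01 and 1.503. On the transcript ENSMUST00000186126 the values were -0.09 and 0.16 on K4 and K5, against -1.44 and -0.90 on W2 and W3. When limma was fitted to the 56597 probes measured on every array, of which 0.0212% were called, the differences were 0.60 ± 0.45, 1.03 ± 0.42 and 1.21 ± 0.41, none past an adjusted p of 0.05. All 4 Ctsh probes above background were therefore higher on both arrays labelled SR-A1-/-, as were 16.5% of all probes above background, while 13.8% were lower on both. The 4 probes read 1 gene in the same 4 RNA samples and are not separate replicates. The fifth probe, at base 255 of ENSMUST00000187437, was not well above background on any array.

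Ctsc encodes cathepsin C, also called dipeptidyl peptidase I, which activates the granule serine proteases of neutrophils, mast cells and cytotoxic lymphocytes. At base 1522 of NM_009982 (mm9, chr7:95458436-95458495) it read 2.17 on K4 and 1.49 on K5, against 0.73 on W2 and 1.05 on W3. The groups did not overlap, with a difference of 0.94 ± 0.36 (95% interval 0.010 to 1.87, limma adjusted p = 0.785). The probe at base 407 of ENSMUST00000131108 also separated the groups, at -1.79 and -2.04 on K4 and K5, against -2.18 and -3.51 on W2 and W3. At base 2654 of the same transcript the groups overlapped, since K5 at -0.36 lay below W2 at -0.26. K4 was the highest array at all 3 probes.
Ctsc base 407: ttgttcatgcagctgggaactgtgggaatg
Ctsc base 1522: cgggtctttatcactcacagagtgatttag
Ctsc base 2654: cactctcattcaaaccaatatacaatgcat

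Markers of cells that use cathepsin C moved in several directions. Over all genes, 16.2% were higher and 13.6% lower without overlap. For mast cells 5 of 5 markers were tested, with a median of 0.98, 1 higher and 1 lower without overlap, and their summed level relative to the 75th percentile was 7.87 and 3.17 on K4 and K5, against 4.65 and 3.13 on W2 and W3. Neutrophil markers, 5 of 6 tested, had a median of -0.0024, 1 higher and 0 lower without overlap, and sums of 2.04 and 2.49, against 0.771 and 4.70. Ly6g differed by 3.50, S100a8 by -0.64 and S100a9 by -1.31. For S100a8 and S100a9 both K4 and K5 lay between W2, the lowest array, and W3, the highest, so no group direction follows. S100a9 read -1.33 and -2.50 on K4 and K5, against -2.83 and 1.63 on W2 and W3. Ly6g and S100a8 were not well above background on W2, and Ngp was not above background on any array. T and B cell markers, 6 of 6 tested, had a median of 0.37, 2 higher and 1 lower without overlap, and sums of 1.76 and 2.30, against 1.68 and 1.79. Ctsg, a granule serine protease that is cut by cathepsin C, was not well above background on W2 and W3. It was above background on K4 at -2.54 and on K5 at -4.41. The lowest signal above background was -4.49 on K5 and -4.26 on W2, so K5 lay near its floor. The group mean was at least 2.22-fold higher (limma adjusted p = 0.603), a bound that rests mostly on K4. The part of these cell types in the Ctsc difference was not tested.

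Ctss encodes cathepsin S, an elastase of macrophages and dendritic cells that also degrades the invariant chain of MHC class II. Its only probe, at base 1191 of NM_021281 (mm9, chr3:95360162-95360221), read 5.02 on K4 and 4.55 on K5, against 2.32 on W2 and 5.89 on W3. The arrays labelled wild type were the lowest and the highest of the 4, so the groups overlapped. The difference of 0.68 ± 1.18 had a 95% interval of -2.35 to 3.72, the widest of the members (adjusted p = 1.0). Without W2 it was -1.10, and without W3 it was 2.47 with an adjusted p of 0.0381 in limma, the lone array being assumed to vary like the other group.
Ctss base 1191: ttgcctgcaatatccagaggaaccaagtgt

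The genes outside the members with the profile nearest to Ctss over the 4 arrays were Stbd1, LOC545005 and Trem2, at root mean square distances of 0.079, 0.13 and 0.15 among 20058 genes above background on every array. Trem2, a lipid receptor of macrophages, read 3.45 and 2.97 on K4 and K5, against 0.86 and 4.03 on W2 and W3. For the marker counts that follow, 16.2% of all genes were higher and 13.6% lower without overlap. The macrophage markers, 12 of 12 tested, had a median difference of 1.35, with 8 higher and 1 lower without overlap, and each was above background on all 4 arrays. Their mean log2 level was 3.40 and 3.04 on K4 and K5, against 1.86 and 2.41 on W2 and W3, while their summed levels were 293 and 292, against 174 and 334. W2 was the lowest array for 9 of the 12, as for Ctss, against 21.8% of all genes. W3 was the highest for 2, Lyz2 and Mertk, and the share of all genes highest on W3 was not computed. Lyz2, the macrophage lysozyme with the highest signal in that list, read 7.06 and 6.78, against 5.25 and 7.86. Dendritic cell markers, 5 of 6 tested, had a median difference of 0.75, with 1 higher without overlap, Clec9a. Their sums of 6.61 and 10.3 on K4 and K5, against 1.02 and 13.5 on W2 and W3, were mostly Itgax on K4, K5 and W3, and their mean log2 levels were -1.49 and -1.32, against -2.71 and -1.48. Xcr1 was not above background on any array. Their part in the Ctss values was not tested, and in whole tissue fewer cells of a type and less RNA per cell cannot be told apart.

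The class II pathway that cathepsin S serves had the highest median of the lists read here. The list of 8 class II processing genes was higher without overlap in 8 of 8, where 16.2% of all genes were, with a median difference of 2.04. Cd74, the invariant chain that cathepsin S cuts, was at 5.77 and 5.65 on K4 and K5, against 3.62 and 3.70 on W2 and W3, a difference of 2.05 ± 0.27. Ciita, the coactivator of class II genes, and H2-Ab1, which encodes a class II beta chain, differed by 2.02 ± 0.27 and 2.57 ± 0.40. None of them passed an adjusted p of 0.05, and W2 and W3 were 3.57 apart for Ctss.

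Ctsk encodes cathepsin K, the main collagenase of osteoclasts, which also cuts elastin and is made by smooth muscle cells and fibroblasts. Its probe at base 1438 of NM_007802 (mm9, chr3:95313165-95313224) read 4.79 on K4 and 5.84 on K5, against 4.14 on W2 and 4.97 on W3. K5 was highest and K4 lay below W3, so the groups overlapped, with a difference of 0.76 ± 0.50 (95% interval -0.54 to 2.06, adjusted p = 1.0). Without K5 it was 0.23 and without K4 it was 1.28. The nearest profiles over the 4 arrays were those of B4galnt1, Ptgds and Adgrd1, at distances of 0.048, 0.086 and 0.097.
Ctsk base 1438: catttcagtcttccactgagatgcacaaat

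Other genes of osteoclasts and fibroblasts were read beside Ctsk. The osteoclast markers, 5 of 6 tested, had a median difference of 0.13, with 1 higher and 2 lower without overlap, against 16.2% and 13.6% of all genes. Their summed levels of 9.93 and 9.52 on K4 and K5, against 17.16 and 20.4 on W2 and W3, were mostly Itgb3, and their mean log2 levels were -0.84 and -0.51, against -1.74 and -0.49. Dcstamp differed by 3.42 ± 1.86, a value that rests mostly on W2, where it was not well above background at -5.93. On W3 it read -0.15, near K4 at 0.44 and K5 at 0.32. Itgb3 was lower without overlap, with a difference of -1.18 ± 0.28, and Calcr was not above background on any array. Fibroblast markers, 6 of 6 tested, had sums of 713 and 1112 on K4 and K5, against 1041 and 654 on W2 and W3, so K5 was highest as for Ctsk while W2 was not lowest. White adipocyte markers were lowest on K5 in 5 of 6, with Lep the exception, and had sums of 381 and 2.45 on K4 and K5, against 294 and 412 on W2 and W3. The part of these cells in the Ctsk values was not tested.

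Ctsb, Ctsd, Ctsl and Ctsz lay near each other in profile, Ctsd and Ctsz least so. Ctsb encodes cathepsin B, an endopeptidase and dipeptidyl carboxypeptidase, and it read 6.90 and 7.03 on K4 and K5, against 6.39 and 7.12 on W2 and W3. Ctsl, for the endopeptidase cathepsin L, read 6.26 and 6.16, against 5.76 and 6.42. The carboxypeptidase gene Ctsz read 4.72 and 4.95, against 4.56 and 4.88. In Ctsd, for the aspartic protease cathepsin D, the values were 6.18 and 6.30, against 5.74 and 6.78.

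Their probes lie on mm9 at chr14:63761826-63761885 for Ctsb, chr13:64465287-64465346 for Ctsl, chr2:174253228-174253287 for Ctsz and chr7:149561962-149562021 for Ctsd. A second Ctsl probe, at base 632 of AK028038, was not well above background on any array. In all 4 of these genes W2 was the lowest array, as it was for 21.8% of all genes. In 3 of them W3 was the highest, and Ctsz was the exception with K5 highest. The differences were 0.21 ± 0.36 for Ctsb, 0.12 ± 0.35 for Ctsl, 0.12 ± 0.30 for Ctsz and -0.016 ± 0.43 for Ctsd, each with a limma adjusted p of 1.0. Their 95% intervals ran from -1.12 at the lowest, for Ctsd, to 1.14 at the highest, for Ctsb. Between the groups' own arrays, the median absolute distance of these 4 genes was 0.12 for K4 and K5 and 0.70 for W2 and W3, while over all genes it was 0.39 and 0.43. Ctsb and Ctsl were the closest pair of the 45 pairs among the members, with a root mean square distance of 0.098 between centred profiles, and the 4 nearest pairs after them also lay within these 4 genes. The remaining pair of these genes, Ctsd and Ctsz, was 0.27 apart, farther than Ctsc and Ctsh at 0.25. The widest pair was Ctss and Cst3, at 1.53.

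**Figure D2:**
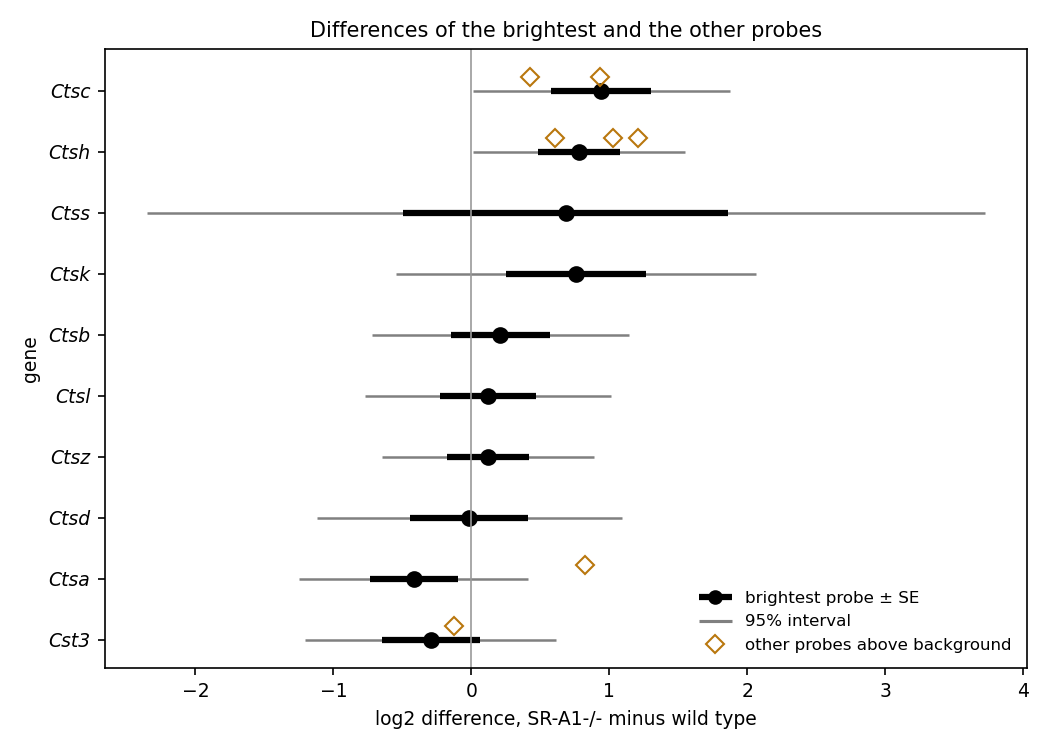
The horizontal axis gives the log2 difference of arrays labelled SR-A1-/- minus arrays labelled wild type for each gene (black points, brightest probe with thick bars for the limma SE and thin lines for the 95% interval; diamonds, other probes above background). The intervals of Ctsc and Ctsh have their lower ends just above 0, and the diamonds of both genes are on the same side. The diamond of Ctsa lies above 0 and its black point below.

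Ctsa encodes cathepsin A, the carboxypeptidase that also protects beta-galactosidase and the sialidase Neu1 in the lysosome. At base 2038 of NM_001038492 (mm9, chr2:164665023-164665082) it read 5.003 on K4 and 5.07 on K5, against 5.18 on W2 and 5.72 on W3. Both arrays labelled SR-A1-/- were below both labelled wild type, with a difference of -0.42 ± 0.32 (95% interval -1.25 to 0.41, adjusted p = 1.0). The other probe, at base 305 of ENSMUST00000146525 (chr2:164659791-164659850), read -3.08 and -2.83 on K4 and K5, against -3.77 and -3.79 on W2 and W3. It separated the groups in the opposite direction, by 0.82 ± 0.39 in the fit of all probes, and with the mean of both probes the gene's difference was 0.20. No direction of the gene as a whole therefore follows from its probes.
Ctsa base 305: tcacaccaatcctttcctatccttcccagg
Ctsa base 2038: gggtggatggattctaattgatggttgact
The partners of cathepsin A, chosen after their values were seen, differed by 0.31 ± 0.32 for Neu1 and -0.14 ± 0.43 for Glb1, the gene of beta-galactosidase.

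Cst3 encodes cystatin C. Its brightest probe, at base 469 of NM_009976 (mm9, minus strand, chr2:148697681-148697740), read 7.22 on K4 and 7.80 on K5, against 8.01 on W2 and 7.60 on W3. K5 lay between the arrays labelled wild type, and the difference was -0.29 ± 0.35 (95% interval -1.20 to 0.62, adjusted p = 1.0). The second probe, at base 349 (chr2:148698574-148698633), read 7.27 and 7.67, against 7.79 and 7.41. Its difference was -0.13 ± 0.41 in the fit of all probes, where the brightest probe had an SE of 0.43. Without K4 the difference at the brightest probe was -0.00033. The nearest profiles were those of 1700049J03Rik, Zdhhc8 and Radil, at distances of 0.0067, 0.012 and 0.014.
Cst3 base 349: gagatgggccgaactacatgtaccaagtcc
Cst3 base 469: aaaggcacacactccctgacaaaattcagc

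Set against Cst3 on the same array, where any scaling of the array cancels, 8 of the 9 cathepsins had higher means on the arrays labelled SR-A1-/-, where 79.6% of all genes did, so this count is near the background. The quantity is the log2 cathepsin signal minus the log2 Cst3 signal of 2 different probes, so only its differences between arrays have a meaning. Those differences had a median of 0.50 and ran from -0.12 for Ctsa to 1.23 for Ctsc. The groups did not overlap for 3 of the 9 cathepsins, all higher, against 29.5% of all genes. For Ctsh the values were -0.89 and -1.77 on K4 and K5, against -2.48 and -2.33 on W2 and W3, and the difference was 1.07. For Ctsc they were -5.05 and -6.31, against -7.27 and -6.56, and for Ctsk they were -2.43 and -1.96, against -3.86 and -2.63, a difference of 1.05. Since Cst3 itself was lower by 0.29, each of these differences is larger by that amount than the cathepsin's own. These differences were not tested.

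The members also varied between arrays of 1 label. Of the 10 members, 8 were higher on W3 than on W2, against 48.1% of all genes, and 7 were lowest on W2, against 21.8%. The median absolute distance of the members was 0.26 between K4 and K5 and 0.60 between W2 and W3. The arrays fell into 2 of higher signal, K4 and W3, and 2 of lower signal, K5 and W2. Between the arrays of higher signal, K4 minus W3, only 2 members were above 0, Ctsc at 1.12 and Ctsh at 1.05, with a median of -0.20. Between those of lower signal, K5 minus W2, 8 were above 0 with a median of 0.53, and Ctsc and Ctsh differed by 0.76 and 0.51. Over all genes 50.7% and 47.4% were above 0 in these 2 comparisons. Brown adipocyte markers, 5 of 5 tested, had sums of 145 and 4.70 on K4 and K5, against 21.0 and 420.2 on W2 and W3. These sums divided the arrays in the same way. Dio2 did not, at -0.91 on both K4 and K5, against -0.12 on W2 and 0.83 on W3. Ucp1 was not well above background on K5 and W2. The 5 markers had a median difference of -1.26, with 1 lower without overlap, Dio2, against 13.6% of all genes. The part of brown adipocytes in the members' values was not tested. With signal level as a block, limma gave adjusted p values of 0.316 for Ctsc and 0.368 for Ctsh.

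**Figure D3:**
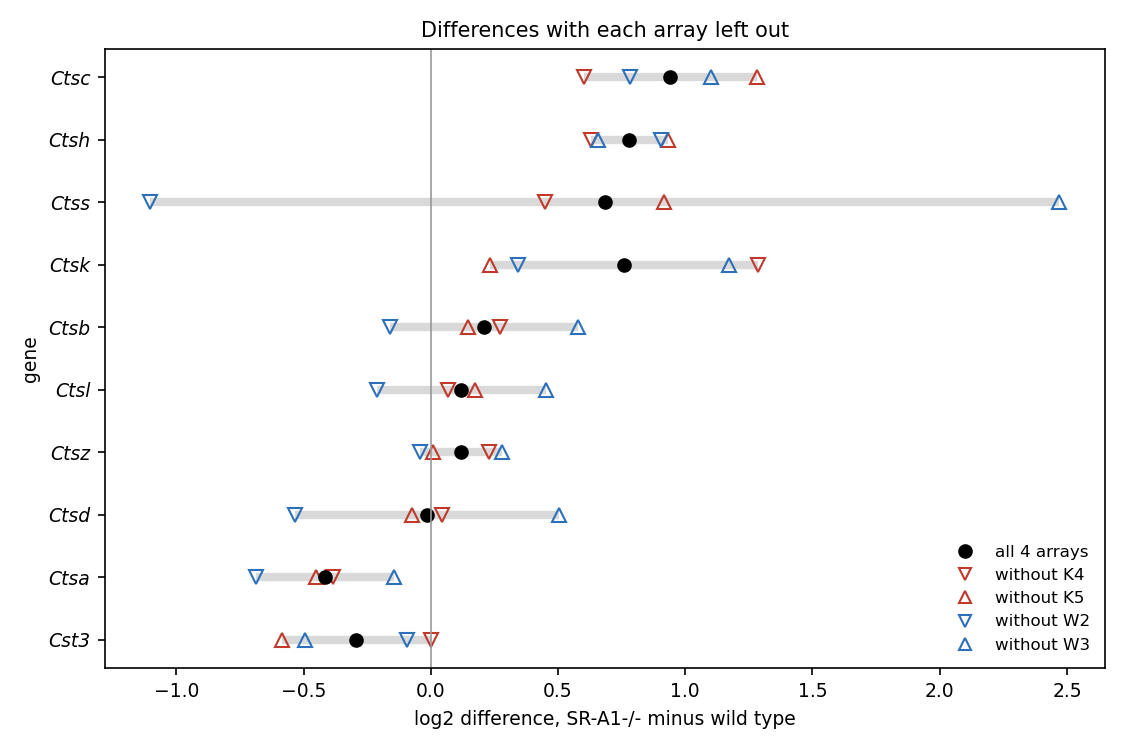
The horizontal axis gives the log2 difference of arrays labelled SR-A1-/- minus arrays labelled wild type for each gene with all 4 arrays (black) and with each array left out (triangles; red for K4 and K5, blue for W2 and W3). Ctsh runs from 0.63 to 0.93 and Ctsc from 0.60 to 1.28, while Ctss runs from -1.10 to 2.47 and Ctsb, Ctsl, Ctsz and Ctsd lie on both sides of 0.

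The other genes of the pathway showed no call in limma at an adjusted p of 0.05, and their counts are read here against the 16.2% of all genes that were higher without overlap, the 13.6% that were lower and the 49.4% above 0. Among the other cathepsins and legumain, 5 of 6 were tested, 3 were higher without overlap and the median was 0.38. Ctsg, 1 of these 3, passed the filter only through K4 and K5, so its place in that count was largely set by the filter. Beside Ctsg, the lymphocyte cathepsin gene Ctsw differed by 0.38 ± 0.28 and Ctsf by 0.41 ± 0.42. Of 14 other cystatin and stefin genes 3 were tested, with a median of -0.010. The intracellular inhibitor gene Cstb differed by -0.010 ± 0.46 and Cst6 by 0.15 ± 0.32, and Stfa3 was above background on K5 and W3 alone.

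Lysosomal hydrolases, 28 of 28 tested, had a median of 0.30, with 20 above 0, 9 higher without overlap, which is 32.1% of the list, and 1 lower. The mannosidase gene Man2b1 read 4.56 and 4.77 on K4 and K5, against 4.06 and 3.85 on W2 and W3, a difference of 0.71 ± 0.29. Of the lysosomal membrane, proton pump and sorting genes, 23 of 23 were tested with a median of 0.15, 20 above 0, 5 higher without overlap and 1 lower. Ctns, the cystine exporter, differed by 0.69 ± 0.28, Scarb2, a lysosomal membrane protein gene, by 0.63 ± 0.38, and Laptm5 by 0.91 ± 0.59.

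Of the matrix genes whose products cathepsins can cut, 10 of 10 were tested, with a median of -0.11, 1 higher without overlap and 4 lower. For this count and the marker counts below, 16.2% of all genes were higher and 13.6% lower without overlap. Eln, the elastin gene, read 3.27 and 3.27 on K4 and K5, against 4.90 and 4.33 on W2 and W3, a difference of -1.35 ± 0.33 (adjusted p = 0.499). Col4a1, a basement membrane collagen gene, differed by -0.75 ± 0.36 and the laminin gene Lamc1 by 0.41 ± 0.28. Smooth muscle markers, 8 of 8 tested, had 8 differences below 0, with 5 lower without overlap, a median of -0.56 and sums of 1078 and 1306 on K4 and K5, against 1884 and 1373 on W2 and W3. Skeletal muscle markers, 6 of 6 tested, had 3 lower without overlap and sums of 88.6 and 159 on K4 and K5, against 800.1 and 250.04 on W2 and W3. Endothelial markers, 6 of 6 tested, had a median of 0.10, with 3 higher and 1 lower without overlap. The part of these cells in the values of the members and the matrix genes was not tested.

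**Figure D4:**
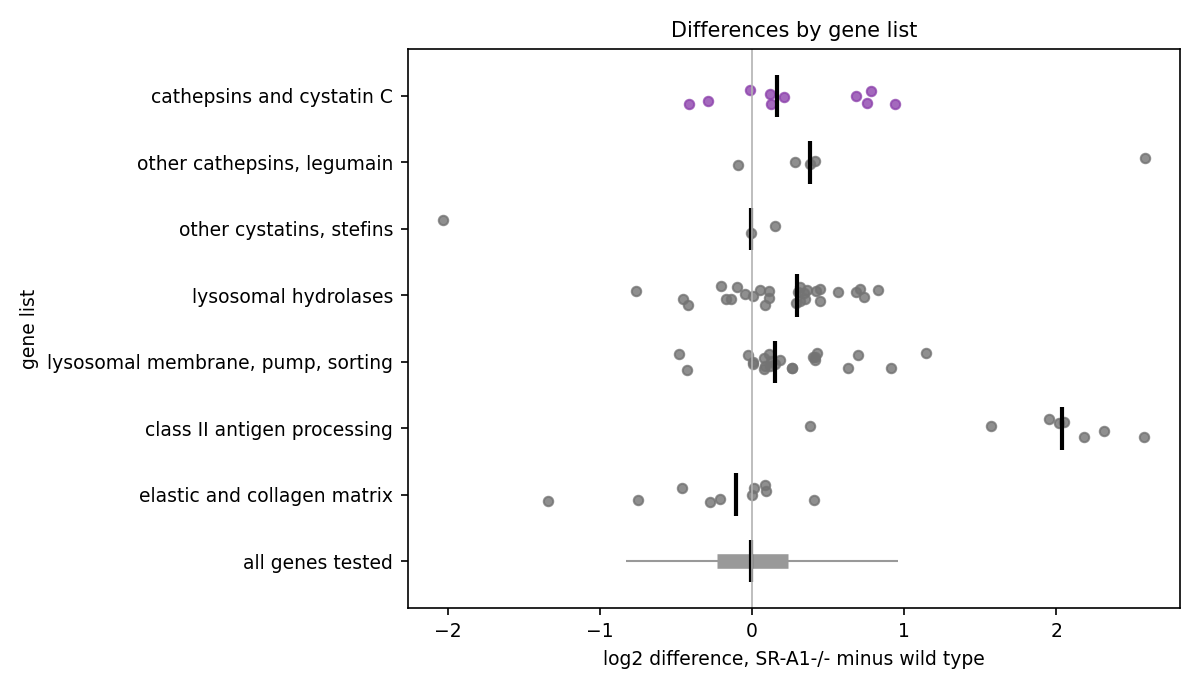
The horizontal axis gives the log2 difference of arrays labelled SR-A1-/- minus arrays labelled wild type, with 1 point a gene and a black bar at the median of each list (bottom row, all 22497 genes tested, with a thick bar from the 25th to the 75th percentile and a line from the 5th to the 95th). The median of the cathepsins and cystatin C is 0.17, within the thick bar of all genes, and the class II list lies furthest to the right with a median of 2.04.

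Promoters were searched because members fell into groups of like profile. RefSeq promoters of GRCm38.p6, from 250 bases before to 50 after the start, were found for 8 of the 10 members, and 6 motifs were searched on both strands. Ctsb and Ctsh had no promoter entry and were not searched, so nothing is known here of their motifs. The extended E-box TCACGTGA, the site of TFEB and related regulators of lysosomal genes, was in the promoters of Ctsa and Ctsd, against 0.974% of 32851 promoters. It contains the E-box core CACGTG, which was also in Ctsl, against 7.15%. The PU.1 type site GAGGAAGT, named for a factor of myeloid cells, was in Ctsc and Ctss, against 3.2%. The stretches are shown 5′ to 3′ in the direction of transcription with the match in capitals. In Ctsc and Ctss the match is to the reverse complement.
Ctsa promoter: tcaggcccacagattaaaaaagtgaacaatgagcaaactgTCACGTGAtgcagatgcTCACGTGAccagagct
Ctsd promoter: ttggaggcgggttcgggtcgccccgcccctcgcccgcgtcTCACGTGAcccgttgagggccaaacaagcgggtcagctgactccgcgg
Ctsc promoter: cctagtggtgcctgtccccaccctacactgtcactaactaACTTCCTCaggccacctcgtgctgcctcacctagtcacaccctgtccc
Ctss promoter: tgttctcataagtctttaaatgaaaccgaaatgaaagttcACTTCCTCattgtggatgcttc
They lie at chr2:164833720-164833792 (plus strand), chr7:142387879-142387966 (minus strand), chr7:88277894-88277981 (plus strand) and chr3:95526744-95526805 (plus strand). Ctsa holds the extended E-box at 2 places of 1 of its 2 promoters. The GC box GGGCGG was in 5 members against 35.7% of promoters, TATAA in 2 against 24.9%, and the AP-1 site TGACTCA in 0 against 5.2%. Among the members with the E-box core, the profile distances were 0.27 for Ctsa and Ctsd, 0.28 for Ctsa and Ctsl and 0.17 for Ctsd and Ctsl. Ctsz, without that core, was as near, at 0.17 from Ctsl and 0.27 from Ctsd. Ctsc and Ctss, which hold the PU.1 type site, were 1.16 apart. Whether motif and profile go together was not tested. A match is only a run of letters in this window and says nothing of binding.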

How the data were processed

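One-colour (Cy3) Agilent arrays measured 4 RNA samples, 2 in each group. Agilent Feature Extraction 12.0.3.1 made the deposited intensity, per the file headers, as a processed signal that was background-subtracted and detrended, not normalised between arrays. The submitters' processing notes name version 10.7, and limma with no role. A second deposited table holds log2 values, and 56605 of its 56732 entries were matched to probes. Its centring is unknown, its columns had medians between 4.31 and 4.32, and its group differences correlated with the scanner values at r = 0.991 across probes.

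Log2 signals were scaled to each array's 75th percentile over probes, outlier spots were left out, and repeated spots averaged. Probes above background on at least 2 arrays were kept, and the brightest probe stood for a gene. No spot that was not a control was saturated (0 on each array). Where a group was below background, its bound was the mean over its arrays of the lowest signal above background. The test was limma 3.58.1 (R 4.3.3; lmFit, then eBayes), with two-sided p-values adjusted by Benjamini-Hochberg over all genes tested. The procedure was tested on simulated data. Profile distance was the root mean square over 4 arrays after centring. The named genes were all members, Msr1, the 3 genes of smallest p in each list, the 3 nearest profiles of Ctss, Ctsk and Cst3, and in marker lists the brightest gene and those not above background. Some genes that this rule takes are not reported here. Neu1, Glb1 and the other marker genes named with values or as exceptions were chosen after their values were seen. The members and lists were chosen with earlier results of these data known. Alternatives were other normalisations, background correction, filters, variance models, the deposited values and leaving out each array. Plots used matplotlib 3.10.9.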

Additional observations from a re-analysis of the deposited data

How the results depend on the processing

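With all 4 arrays, limma called 0 members under each of the 13 alternatives, and the members' median difference stayed between 0.12 and 0.21. The count over all genes was 8 with quantile normalisation, cyclic loess, no filter on dim probes and the deposited values, 7 with median scaling, 5 with an intensity trend and 2 with array weights. Ctsa turned to 0.20 with the mean of its probes. Ctsc and Ctsh stayed higher without overlap under these 13 alternatives, from 0.77 to 0.97 and from 0.73 to 0.90, though neither had an unadjusted p under 0.05 with median scaling or no filter, nor Ctsc with the mean of probes or array weights. Leaving out 1 array gave 0 to 371 called genes, with 260 without W2 and 371 without W3. The members called were 0 to 1 and their median was -0.13 to 0.54, the lowest without W2 and the highest without W3. Those same steps moved Ctsb between -0.16 and 0.58, Ctsl between -0.21 and 0.45, Ctsz between -0.041 and 0.28 and Ctss between -1.10 and 2.47. Ctsd moved between -0.53 and 0.50 and was 0.043 without K4. The cause was not tested. No paired analysis was possible because the labels give the groups different replicate numbers. The number of arrays limits the precision.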
